A study of Mus musculus with 4 samples.

Results

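Eef1a1, Hspa8, Ncl, Eno1 and Tuba1a are 5 highly transcribed housekeeping genes at which S9.6 CUT&Tag intervals were called in mouse P19 cells. They are 5 of the 49939 genes placed on mm10 chromosomes (GRCm38.p6 annotation, the same build). They were chosen by name from the same 4 lists, on the presence of a called S9.6 interval, so that the presence of an interval at each of them is how they were chosen and is no finding. An interval belonged to a gene when it overlapped the gene body or the 1000 bp beside it by at least 1 bp. The 5 genes held 11 distinct intervals in the 4 deposited peak lists, each with 1 summit, and no further interval came within 2000 bp of any of them. High transcription of these genes is common knowledge and was not measured, since peak lists of genomic DNA hold no transcript levels. The identity of the line and the knockdown could not be checked for the same reason.

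P19 is a single line of mouse embryonal carcinoma cells. There were 4 libraries, 1 per condition. Cells labelled wild-type and given a control adenovirus (shCtrl) were profiled with S9.6. Cells given the adenovirus shUbe2t #1 or shUbe2t #2, each labelled as a Ube2t knockdown, were profiled with the same antibody. A further shCtrl library was made without primary antibody, although its deposited peak names begin with IgG. All 4 libraries come from cells given an adenovirus, and uninfected cells are not analysed here. The study asked what UBE2T, which conjugates ubiquitin in Fanconi anaemia crosslink repair, does in the removal of R-loops.

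An R-loop forms when RNA pairs with the template DNA strand and leaves the other strand single. S9.6 is an antibody to the RNA:DNA hybrid. CUT&Tag uses a tethered transposase to insert sequencing adapters next to the bound antibody. R-loops are known to form at the promoters and 3′ ends of active genes, often where the DNA is rich in G and C. The 5 genes serve basic functions of a growing cell, from protein synthesis and folding to ribosome production, glycolysis and the cytoskeleton. No library treated to remove hybrids was analysed here, so whether the intervals are R-loops was not tested.

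The S9.6 lists held 1263 intervals in shCtrl, 1519 with hairpin 1 and 1640 with hairpin 2, and the no-antibody list held 516. The number of fragments over each summit base (summit pileup) and the local background it was compared with were recovered from the authors' fold and p. The lowest background of a library scales with its depth and gave 92.2% of the shCtrl depth for shUbe2t #1, 93.6% for shUbe2t #2 and 58.7% without antibody. Each condition is 1 library, so differences have no replicate check and no test was run. The bounds below are exact 95% Poisson or binomial intervals, which cover counting error only. They take no account of each library having its own summit base. PCR copies, if kept in the deposited calls, are not independent molecules.

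Of the 5 genes, 5 held an interval in the shCtrl S9.6 list, where 1.79% of all placed genes did. Of the 5, 3 held one in shUbe2t #1 (2.74% of all placed genes) and 3 in shUbe2t #2 (1498 of all placed genes, or 3%), and 0 without antibody (0.493%). Regions of all 3 S9.6 lists lay at 2 of the 5, Eef1a1 and Hspa8, against 0.759% of placed genes. None of the 5 was at a region of both knockdown lists and not shCtrl, as 0.591% of placed genes were. Nothing is read from these counts, since they chose the genes.

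The 250 bases before the annotated start are shown for the 4 genes whose starts are in the RefSeq promoter table, because the intervals lay on them. They are read on the gene's own strand, 5′ to 3′, from GRCm38.p6. Capitals mark matches, on either strand, to a G-quadruplex pattern (4 runs of at least 3 guanines with 1 to 7 bases between runs), to the box GGGCGG or to the box CCAAT. In order they are chr9:78481725-78481974 (minus strand), chr1:86359456-86359705 (minus), chr4:150236947-150237196 (plus, before the second of 3 annotated Eno1 starts) and chr15:98953502-98953751 (minus).
Eef1a1: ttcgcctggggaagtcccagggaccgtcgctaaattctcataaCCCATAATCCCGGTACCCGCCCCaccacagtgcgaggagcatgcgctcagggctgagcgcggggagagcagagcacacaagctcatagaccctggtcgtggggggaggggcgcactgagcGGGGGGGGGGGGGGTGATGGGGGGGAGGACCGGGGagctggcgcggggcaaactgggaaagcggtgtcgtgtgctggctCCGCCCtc
Ncl: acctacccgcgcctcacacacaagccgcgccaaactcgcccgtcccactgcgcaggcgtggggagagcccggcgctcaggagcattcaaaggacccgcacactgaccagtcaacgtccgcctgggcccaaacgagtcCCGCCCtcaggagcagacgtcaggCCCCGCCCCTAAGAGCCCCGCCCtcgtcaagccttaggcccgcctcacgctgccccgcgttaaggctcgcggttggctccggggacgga
Eno1: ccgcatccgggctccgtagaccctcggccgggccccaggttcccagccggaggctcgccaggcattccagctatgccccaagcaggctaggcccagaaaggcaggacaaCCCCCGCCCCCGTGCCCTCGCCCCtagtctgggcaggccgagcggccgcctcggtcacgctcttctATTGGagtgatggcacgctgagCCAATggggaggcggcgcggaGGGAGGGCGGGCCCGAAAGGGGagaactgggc
Tuba1a: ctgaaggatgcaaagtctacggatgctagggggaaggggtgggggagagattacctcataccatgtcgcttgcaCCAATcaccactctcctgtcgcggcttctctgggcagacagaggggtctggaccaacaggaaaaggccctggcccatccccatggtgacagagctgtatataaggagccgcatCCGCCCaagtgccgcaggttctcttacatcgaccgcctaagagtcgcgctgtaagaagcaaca

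The capitals show what the windows have in common. GGGCGG, the box bound by Sp1-family factors, was in each of the 4 windows shown, with 2 matches in Eef1a1, 3 in Ncl, 2 in Eno1 and 1 in Tuba1a. Of all 32817 promoter windows of this length, 32.7% held it on either strand, as did 78.0% of the 327 windows overlapped by a shCtrl S9.6 interval and 66.7% of the 18 overlapped by a no-antibody interval. The window before the first Eno1 start held 0 matches to it and that before the third held 3. A G-quadruplex pattern was in the windows of Eef1a1, Ncl and Eno1 and not in that of Tuba1a, against 16.7% of all windows and 31.2% of those overlapped by a shCtrl interval. Eef1a1 and Eno1 had it on each strand, and Ncl on the antisense strand. Of the GGGCGG matches, 1 of 2 in Eef1a1, 2 of 3 in Ncl and 2 of 2 in Eno1 lay inside such a pattern, so these 2 motifs are not separate features there. CCAAT, the box bound by NF-Y, was in Eno1 and Tuba1a (33.8% of all windows, 54.1% of those overlapped by a shCtrl interval), but not before the first Eno1 start. TATAAA (12.4% of all windows), CACGTG (6.02%) and GAANNTTC, a heat shock element core (6.69%), had no exact match in any of the 4 windows. Looser forms, such as the tatataag of the Tuba1a window, were not searched.

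Base composition was high in G and C in 3 of the 4 windows. G and C made up 68.0% of the Eef1a1 window, 69.6% of Ncl, 71.2% of Eno1 and 56.8% of Tuba1a. The median of all windows was 52.4%, and that of windows overlapped by a shCtrl S9.6 interval 64.4%. The 18 windows overlapped by a no-antibody interval had a median of 65%. The window before the first Eno1 start, outside the intervals, had 55.6%. The sense strand did not lean the same way in all of them. GC skew, the excess of G over C divided by their sum, was 0.212 in Eef1a1, at the 90.0th percentile of all windows. It was -0.195 in Ncl, at the 10.7th percentile, 0 in Eno1 and 0.0282 in Tuba1a. The windows overlapped by shCtrl intervals had a median skew of 0. An excess of G on the non-template strand of transcribed DNA is a known feature of many R-loop promoters. The windows of Eef1a1, Ncl and Tuba1a end where the annotated transcript begins, so their skew does not describe that feature. Part of the Ncl window lies in C130036L24Rik, which is transcribed the opposite way. Whether skew bears on the intervals was not tested.

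**Figure D1:**
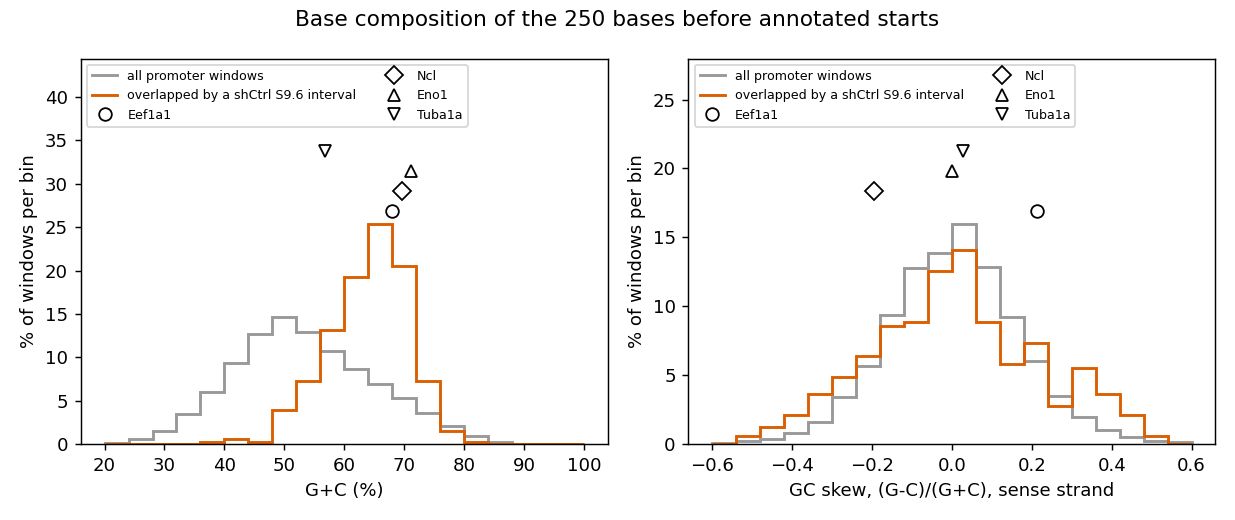
Share of G and C (left, in percent) and GC skew on the sense strand (right) in the 250 bases before annotated starts; lines give the percent of windows per bin for all windows and for those overlapped by a shCtrl S9.6 interval, and symbols mark 4 of the genes at heights chosen for legibility. Eef1a1, Ncl and Eno1 lie at 68.0% to 71.2% G and C with Tuba1a at 56.8%, while Eef1a1 and Ncl lie on opposite sides of 0 in skew.

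Eef1a1 encodes eEF1A1, the elongation factor that brings aminoacyl-tRNA to the ribosome. The gene (identifier 13627, chr9:78478453-78481724, minus strand) held 1 region of all 3 S9.6 lists at its promoter. The interval ran over 335 bp in shCtrl (chr9:78481668-78482002) and took in the start with 57 bp of the gene body. In shUbe2t #1 it ran over 200 bp (chr9:78481789-78481988) and in shUbe2t #2 over 208 bp (chr9:78481789-78481996), and each ended 65 bp short of the start. The 3 intervals shared 200 bp upstream of the gene. Their summits lay 235, 130 and 225 bp upstream of the start, in the same order. The far gene end was more than 3 kb away, at 3215 bp from the shCtrl interval. The next genes were Mto1, a tRNA modification gene, 7503 bp from the shCtrl interval on the side of that end, and the lncRNA LOC115487230, 5538 bp upstream.

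The Eef1a1 fold was 4.60 in control cells, 3.67 with hairpin 1 and 5.26 with hairpin 2, and the −log10 q 3.91, 1.90 and 6.33. The summit held 15 fragments in shCtrl (8.40 to 24.7), 12 in shUbe2t #1 (6.20 to 21.0) and 19 in shUbe2t #2 (11.4 to 29.7). The library of hairpin 2 was the highest and that of hairpin 1 the lowest, with control cells between them and all 3 counting intervals overlapping. Scaled for depth, the shUbe2t #1 summit was 0.868 times that of shCtrl (0.371 to 1.99) and the shUbe2t #2 summit 1.35 times (0.652 to 2.86). Between the hairpins the ratio of #2 to #1 was 1.56 (0.719 to 3.53). No difference was detectable at this depth, and changes of up to about these bounds cannot be told from none.

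Hspa8 encodes HSC70, the constitutive HSP70 chaperone. The gene (identifier 15481, chr9:40801276-40805202) hosts the 3 small nucleolar RNAs Snord14c, Snord14d and Snord14e in its body. Its region of all 3 S9.6 lists lay at the lower-coordinate gene end, away from the snoRNAs. The interval was 384 bp long in shCtrl (chr9:40800866-40801249) and ended 27 bp outside the gene. In shUbe2t #1 it was 200 bp long (chr9:40801011-40801210) and ended 66 bp outside. In shUbe2t #2 it was 482 bp long (chr9:40800876-40801357), the widest of the 11, and reached 82 bp into the body. The neighbours were far off, with Clmp, an adhesion protein gene, at 15313 bp and Bsx, a homeobox gene, at 72878 bp from the shCtrl interval.

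The Hspa8 fold was 5.65 in control cells, 4.38 with hairpin 1 and 4.11 with hairpin 2, and the −log10 q 4.95, 3.09 and 2.32. The pileup did not follow this order. It was 13 fragments in shCtrl (6.92 to 22.2), 13 in shUbe2t #1 (6.92 to 22.2) and 11 in shUbe2t #2 (5.49 to 19.7). The local background came to 1.48 fragments for control cells, 2.20 for hairpin 1 and 1.92 for hairpin 2, so that the same 13 fragments gave a higher fold in control cells. Scaled for depth the ratios to shCtrl were 1.08 (0.463 to 2.54) for hairpin 1 and 0.904 (0.367 to 2.19) for hairpin 2.

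Ncl encodes nucleolin, a major nucleolar protein that acts in ribosomal RNA synthesis and is known to bind G-quadruplexes. The gene (identifier 17975, chr1:86344719-86359455, minus strand) hosts Snora75 and Snord82 and the predicted miRNA gene Gm24148. Its region lay at the promoter and was called in shCtrl (331 bp, chr1:86359416-86359746) and shUbe2t #2 (309 bp, chr1:86359379-86359687). No interval was called in shUbe2t #1, whose nearest one lay 168 kb away. Both intervals covered the start of Ncl and that of the lncRNA C130036L24Rik, which is transcribed the opposite way from a start 129 bp further upstream. The shCtrl summit lay 140 bp upstream of the Ncl start and 11 bp inside the lncRNA. The shUbe2t #2 summit lay 26 bp inside Ncl. With the 2 starts this close, the signal cannot be given to either gene.

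The shCtrl interval of Ncl had the highest fold (6.47) and −log10 q (7.69) of the 11. Its summit held 17 fragments (9.90 to 27.2), fewer than the 19 of Eef1a1 in shUbe2t #2. In shUbe2t #2 the fold was 3.74, the −log10 q 2.01 and the pileup 12 (6.20 to 21.0). The control library was thus the higher of the pair, by a depth-scaled ratio of 0.754 for shUbe2t #2 over shCtrl (0.329 to 1.68), with counting intervals that overlap. In shUbe2t #1 the shCtrl summit scaled to its depth would hold 15.7 fragments, where 9 would have reached the lowest −log10 p of that list. This concerns the summit base alone, and the length a called peak must cover was not considered. Scaled from shUbe2t #2 it would hold 11.8, where 11 would have reached that value. Whether the missing call reflects a lower signal was not tested.

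Eno1 encodes alpha-enolase, the glycolytic enzyme that makes phosphoenolpyruvate. The gene (identifier 13806, chr4:150236708-150248879, plus strand) has 3 annotated starts, the second 489 bp after the first and the third 27 bp after the second. The interval was called in shCtrl (323 bp, chr4:150236975-150237297) and shUbe2t #1 (286 bp, chr4:150236941-150237226), within the gene body as annotated and over the second and the third start. The shCtrl summit lay between these starts, 13 bp past the second and 14 bp before the third. The shUbe2t #1 summit lay 204 bp upstream of the second start and 285 bp past the first. The first start itself was outside the intervals, by 267 and 233 bp. The nearest neighbours were Car6, a carbonic anhydrase gene, at 35840 bp and the lncRNA Gm33415 at 21914 bp from the shCtrl interval.

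The Eno1 fold was 4.42 in shCtrl and 3.53 in shUbe2t #1, with −log10 q of 2.85 and 1.44, the latter the lowest of the 11 intervals. The pileup was 12 fragments in shCtrl (6.20 to 21.0) and 10 in shUbe2t #1 (4.80 to 18.4), a depth-scaled ratio of 0.904 (0.350 to 2.28). The 2 libraries were not distinguishable at this depth. In shUbe2t #2 there was no interval within 149 kb. The shCtrl summit scaled to that library would hold 11.2 fragments and that of shUbe2t #1 10.1. By p at the summit base alone, 9 and 10 would have been callable.

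Tuba1a encodes an alpha-tubulin of microtubules that is known above all from developing neurons. The gene (identifier 22142, chr15:98949847-98953501, minus strand) held an interval in shCtrl alone, as 0.737% of all placed genes did. It was 200 bp long (chr15:98953514-98953713), ended 13 bp short of the start and had its summit 199 bp upstream. The fold was 4.75, the −log10 q 2.84 and the pileup 10 fragments (4.80 to 18.4). The nearer end of the lncRNA B430209F14Rik was 1620 bp further upstream, and the lncRNA Gm41396 lay 9843 bp away beyond the far end. Scaled for depth, the summit would hold 9.22 fragments in shUbe2t #1 and 9.36 in shUbe2t #2. By p at the summit base alone, 8 would have been callable in each. Fewer than 2 fragments thus separate it from the threshold, and a loss of signal in the knockdown libraries was not detectable at this depth.

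**Figure D2:**
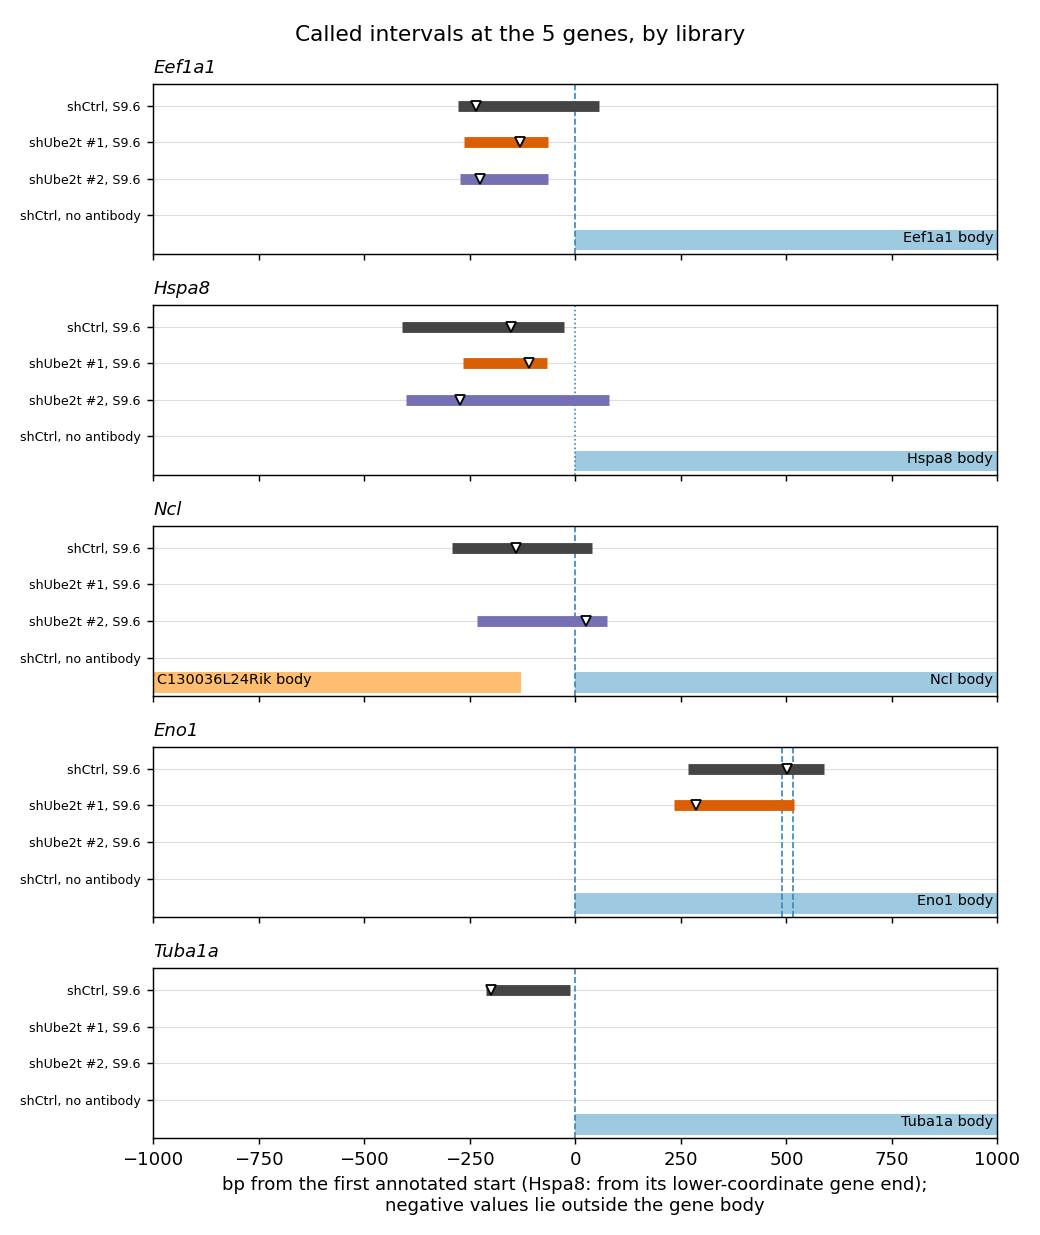
Called intervals (bars) and their summits (triangles) at each gene in each of the 4 libraries, by distance in bp from the first annotated start, or for Hspa8 from its lower-coordinate gene end; negative values lie outside the body, dashed lines are annotated starts and the blocks under the rows are gene bodies. Each interval lies at the start side of its gene (for Hspa8, at the gene end drawn), those of Eno1 at the second and the third start, and the row of the no-antibody library is empty in all 5 panels.

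Set side by side, the 11 intervals ran from 200 to 482 bp in width, and 0 of the 11 came within 1000 bp of the far gene end. Those of Eef1a1 and Hspa8 in shUbe2t #1 and of Tuba1a in shCtrl were each exactly 200 bp wide. Whether this width is a lower limit of the caller was not tested, so nothing is read from differences in width between libraries. At the 4 genes with annotated starts, 6 of 8 summits lay upstream of the gene's own nearest start, by up to 235 bp. The other 2 lay 13 bp (Eno1, shCtrl) and 26 bp (Ncl, shUbe2t #2) past it. The Ncl summit in shCtrl counts as upstream here, although it lay 11 bp past the start of C130036L24Rik, which was nearer. The genes were listed with these calls known, so the position of the intervals in them is a description only. Most intervals of these lists lay elsewhere. Within 1000 bp of any annotated start were 25.7% of all shCtrl intervals, 41.6% of those in shUbe2t #1 and 44.1% in shUbe2t #2. The no-antibody share was 6.01%. Of the shCtrl intervals there, 66.7% had an upstream summit (216 of 324, 61.2 to 71.8). The share was 69.3% in shUbe2t #1 (438 of 632, 65.5 to 72.9) and 69.4% in shUbe2t #2 (502 of 723, 65.9 to 72.8). Without antibody it was 61.3% (19 of 31, 42.2 to 78.2), an interval that takes in the S9.6 shares. The median S9.6 summit lay 64.5, 70 and 73 bp upstream.

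**Figure D3:**
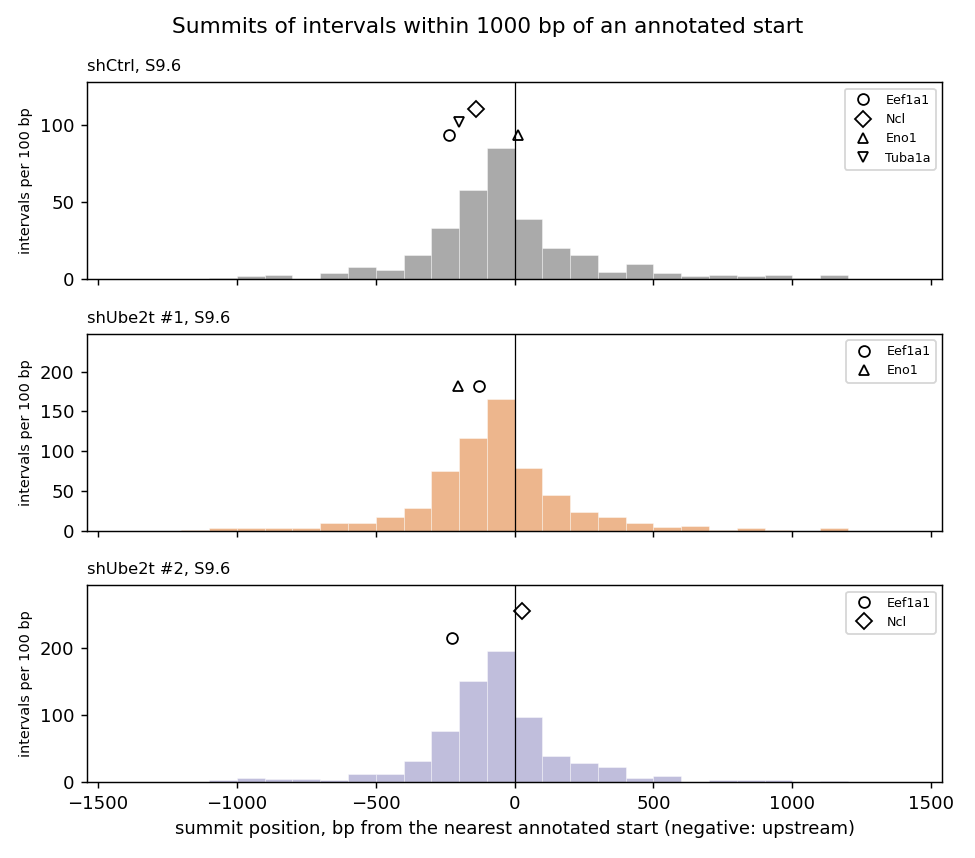
Number of intervals per 100 bp by the position of their summit, in bp from the nearest annotated start, for all intervals within 1000 bp of a start in each S9.6 list; symbols mark the genes with annotated starts, at heights chosen for legibility. The bars peak in the bin just upstream of the start. Of the 8 marked summits, 6 lie upstream of the nearest start of their own gene, by 130 to 235 bp. The Ncl summit in shCtrl is drawn 140 bp upstream of the Ncl start, but lay 11 bp past the nearer start of C130036L24Rik.

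By fold and pileup most of the 11 intervals lay in the lower part of their lists. These lists also hold strong intervals that were called without antibody. In shCtrl, 367 intervals met a call in all 4 lists, with a median pileup of 46 (42 in shUbe2t #1 and 41 in shUbe2t #2). The ranks below are among whole lists, and ranks among regions free of no-antibody intervals follow later for Eef1a1 and Hspa8. Fold ran from 3.53 to 6.47 and the pileup from 10 to 19 fragments, where the median interval of each S9.6 list held 16, more than 9 of the 11. By fold, 8 of the 11 were at or below the 50th percentile of their list, among them 5 of the 6 in the knockdown lists. The 3 above it were Ncl in shCtrl (76.4th percentile), Hspa8 in shCtrl (67.1st) and Eef1a1 in shUbe2t #2 (61.3rd). The lowest was Eno1 in shUbe2t #1, at the 6.81st. In shCtrl the 5 genes ran from the 36.8th to the 76.4th percentile.

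The order of the genes depended on the library. In shCtrl the pileups were 17 at Ncl, 15 at Eef1a1, 13 at Hspa8, 12 at Eno1 and 10 at Tuba1a. In shUbe2t #1 Hspa8 held 13, Eef1a1 12 and Eno1 10, and in shUbe2t #2 Eef1a1 held 19, Ncl 12 and Hspa8 11. Within each library all counting intervals overlapped, including those of the highest and lowest gene. Such overlap does not show that the genes are equal, and differences between genes were not tested. Fold and pileup ranked the genes differently. Tuba1a, with 10 fragments over a background of 1.31, the lowest of the shCtrl library, had a higher fold (4.75) than Eef1a1 (4.60), with 15 fragments over a background of 2.48. At Eef1a1 the background was 2.48, 2.54 and 2.80 in the S9.6 libraries, which is 1.89, 2.09 and 2.28 times the lowest of the library. It was only somewhat above the median background of all summits, at 2.38, 2.32 and 2.26. Ncl in shUbe2t #2 also had a background of 2.48. Eef1a1 and Tuba1a have close sequence copies elsewhere in the genome, and how reads that match several places were treated is not given in the sources used here. Its part in these values was not tested.

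**Figure D4:**
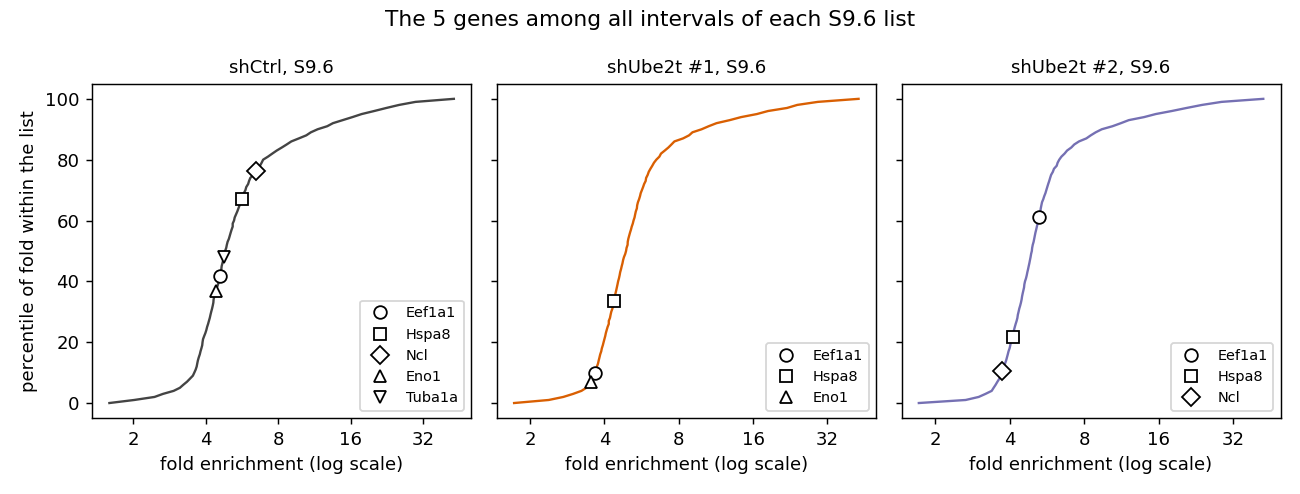
Percentile of fold within each S9.6 list against fold enrichment (log scale); the line is the whole list and the symbols are those of the 5 genes called in it. The genes sit between the 36.8th and 76.4th percentile in shCtrl, and between the 6.81st and 61.3rd in the 2 knockdown lists.

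The no-antibody library held no interval at any of the 5 genes, and its nearest ones lay 2650 kb or further away. Its depth limits what this absence shows. Scaled to that depth, 3 of the 11 summits would reach the smallest pileup callable by p alone at their local background. They were Ncl in shCtrl (1.25 times that pileup), Eef1a1 in shUbe2t #2 (1.19 times) and Hspa8 in shCtrl (1.09 times). The other 8 would fall below it, the lowest being Eno1 in shUbe2t #1 at 0.707 times. For those 8, a signal of the same strength per fragment would fall short of a call by this depth measure. Eef1a1 in shCtrl was near the limit, at 0.978 times. The median background was 1.98 without antibody and 2.38 in shCtrl, a smaller gap in depth. Other depth measures were not applied to this count.

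**Figure D5:**
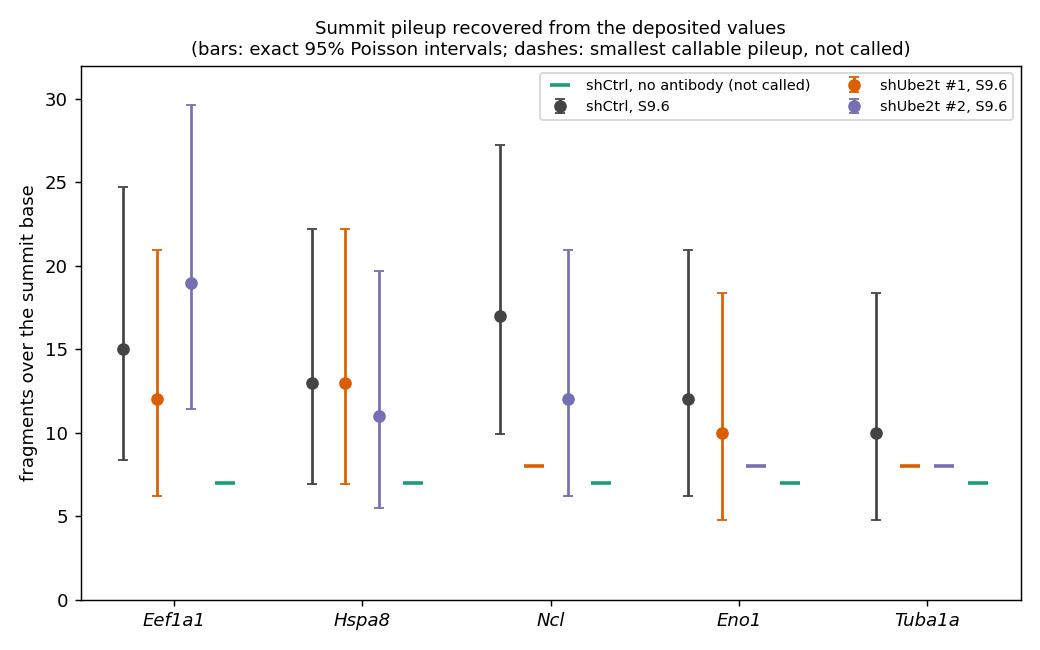
Fragments over the summit base at each gene in each library; points are pileups recovered from the deposited values, bars are exact 95% Poisson intervals, and dashes mark the smallest pileup callable by p alone at the lowest background of a library without a call (8 in the S9.6 libraries, 7 without antibody). Points run from 10 to 19 fragments and their intervals overlap within each gene.

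Between conditions the depth-scaled ratios of knockdown to control, where both libraries had a call, lay on both sides of 1. There were 6 such ratios, from 0.754 at Ncl to 1.35 at Eef1a1, and the interval of each took in 1. Each ratio sets a library's own summit against that of shCtrl, so it does not compare the same base. The summits of a gene spread over 105 bp at Eef1a1, 162 bp at Hspa8, 166 bp at Ncl and 217 bp at Eno1. The comparisons share the shCtrl library. Each also needed a call in both libraries, so that genes below threshold in either are missing.

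The genes whose pileups were most like those of Eef1a1 and Hspa8 were found by distance over the 3 S9.6 libraries. The measure was the Euclidean distance of log2 depth-scaled pileups, among 113 other regions of all 3 lists at the ends of named genes and free of no-antibody intervals. For Eef1a1 they were Zfp868, a zinc finger gene (distance 0.25), Cbfa2t2, a transcriptional corepressor gene (0.29), and Rps6ka5, the gene of the kinase MSK1 (0.30). For Hspa8 they were Birc6, a ubiquitin ligase gene (0.29), L3hypdh, a hydroxyproline dehydratase gene (0.30), and AW549877 (0.33). Pileups at Zfp868 were 13, 11 and 18 fragments in shCtrl, shUbe2t #1 and shUbe2t #2, beside 15, 12 and 19 at Eef1a1. At Birc6 they were 12, 14 and 13, beside 13, 13 and 11 at Hspa8. Counting error is larger than these distances, so the ranking could change with another count. Over all 114 such regions the median pileup was 15 in shCtrl and 17 in each knockdown library. Eef1a1 lay at the 54.8th, 14.0th and 60.5th percentile of the depth-scaled values and Hspa8 at the 27.6th, 19.7th and 3.51st.

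Other genes of the same functions were taken from 7 lists with 250 placed genes, 245 of them besides the 5. Of the 245, 9 held an interval in shCtrl (3.67%), 19 in shUbe2t #1 (7.76%) and 19 in shUbe2t #2 (7.76%), and 0 without antibody. Protein-coding genes as a whole gave 3.07%, 4.95%, 5.42% and 0.731%. The numbers for single lists below are to be set beside these shares. They include the 5 genes, which were chosen as called, so nothing is read from them. Most of these genes were called once. Of the 38 with an S9.6 interval, 31 had it in 1 list, 5 in 2 and 2 in all 3. Their 47 intervals had a median fold of 4.71 (3.65 to 7.24). Of the 44 whose gene has an annotated start, 35 had a summit within 300 bp of it and 31 had it upstream.

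Among 28 translation factors, 3 held an interval in shCtrl (10.7%), 5 in shUbe2t #1 (17.9%) and 3 in shUbe2t #2 (10.7%), with Eef1a1 among them each time. Eif5a, which encodes a factor that keeps ribosomes moving through difficult peptides, was the other translation gene with a region of all 3 lists. Its folds were 4.13, 4.77 and 5.18 with 16, 20 and 22 fragments. Eif4a1, the RNA helicase of cap-dependent initiation, had a fold of 5.12 in shUbe2t #1, where Eif4g2 and Pabpc1, the poly(A)-binding protein gene, were also called. Eif4g1 was called in shCtrl and Eif1 in shUbe2t #2. Eef2, Eef1b2, Eef1d and Eef1g, the other elongation factor genes of the list that work beside eEF1A, held none.

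Among 34 chaperone genes, Hspa8 was the 1 with an interval in shCtrl, while 6 held one in shUbe2t #1 and 7 in shUbe2t #2. The co-chaperone genes Hspbp1, a nucleotide exchange factor of HSP70, and Dnajc7, a J-domain protein, were called in both knockdown lists and not in shCtrl. Hspbp1 had folds of 7.24 and 5.21, and Dnajc7 4.71 and 5.05. Hsp90b1, the HSP90 of the endoplasmic reticulum, Stip1, which links HSP70 and HSP90, and the chaperonin subunit gene Cct7 were called in shUbe2t #1 alone. Hspa2, Hspa4, Dnajb1 and the chaperonin subunit gene Tcp1 were called in shUbe2t #2 alone. The difference between libraries has no replicate check, and the knockdown lists are the longer ones.

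Among 28 genes of nucleolar proteins and snoRNA hosts, 2 held an interval in shCtrl, 2 in shUbe2t #1 and 4 in shUbe2t #2. Dkc1, the pseudouridine synthase of box H/ACA particles, was called in both knockdown lists and not in shCtrl (folds 5.88 and 5.38). Nop14, a ribosome assembly factor gene, was called in shCtrl. Gnl3, the nucleostemin gene, was called in shUbe2t #1 with a fold of 7.05, and Nop2 and the snoRNA host Gas5 in shUbe2t #2. Npm1, Fbl, Nop56 and Nop58, which encode abundant nucleolar proteins, held none.

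Among 19 glycolytic genes, 2 held an interval in shCtrl, 1 in shUbe2t #1 and 1 in shUbe2t #2. Besides Eno1 these were its neuronal paralog Eno2 in shCtrl (fold 3.85) and the pyruvate kinase gene Pkm in shUbe2t #2 (3.65). Among 22 tubulin and actin genes the numbers were 2, 2 and 0. Tubb4b, a beta-tubulin gene, was called in shCtrl (4.08) and shUbe2t #1 (4.30), and Tuba1c, an alpha-tubulin gene of the same chromosome as Tuba1a, in shUbe2t #1 (4.92). Actb and Actg1, the cytoplasmic actin genes, and Tuba1b held none.

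Ribosomal protein genes gave 2, 2 and 0 of 76, with Rpl4 and Rpl37 in shCtrl and Rpl7 and Rpl15 in shUbe2t #1. These are 2.63%, 2.63% and 0%, below the 3.07%, 4.95% and 5.42% of protein-coding genes. The last list, 43 other highly transcribed genes, gave 2, 4 and 7. Hnrnpa2b1, which encodes an RNA-binding protein, had a region of all 3 lists with folds of 5.33, 3.77 and 4.29. Hmgb2, a chromatin protein gene, was in both knockdown lists and not in shCtrl (4.45 and 3.66). Hnrnpc was called in shCtrl, B2m and Ptma in shUbe2t #1, and Vdac1, H3f3a, Ybx1, Fth1 and Polr2a, the gene of the largest RNA polymerase II subunit, in shUbe2t #2.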

How the data were processed

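The series has 3 S9.6 CUT&Tag libraries and 1 without primary antibody, each amplified for 11 cycles per the labels' protocols. The submitters' processing notes name MACS2 2.1.2, mm10, Trimmomatic and Bowtie, with 0.7.12 as the version of the last. How duplicates were treated, which q threshold was set and whether peaks were called against a control is not given in the sources used here. The deposited lists were called per library and give a fold (a ratio of summit over local background), p and q values on a −log10 scale, a score derived from q, and the summit position. The authors' folds describe peaks within a list.

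Pileup and background were solved from fold, taken as (pileup + 1)/(background + 1), and p, taken as a Poisson tail. At least 99.2% of pileups came out whole within 0.05 fragments, and the solver was tested on simulated data. Depth was the lowest background of a library. A pileup was callable when its p at the local background, scaled for depth, reached the lowest deposited −log10 p of the library. The length a called peak must cover was not part of this. Overlapping S9.6 intervals (0 bp apart) made a region. Of the 5 genes, 4 matched the RefSeq promoter table (GRCm38.p6), which gave strand and starts; a gene table of the same build gave bodies, and exons were not told apart. Motifs were searched on both strands of 250 bases. Python 3.11.15, scipy 1.17.1 and pandas 2.3.3 were used.

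No test between conditions was possible with 1 library each. The 5 genes and the 7 lists were chosen with earlier results of these data known. Genes named were the 5, those beside their intervals, list genes with an interval, and the 3 nearest in pileup over the S9.6 libraries to each gene with a region of all 3; list genes named as holding none were chosen after their values were seen. Alternatives were a −log10 q of at least 5, other windows and overlaps, equal list lengths, and other depth measures.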

Additional observations from a re-analysis of the deposited data

Results flagged for a closer look

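Of the 5 genes, 2 were called with both hairpins, and at each of these the hairpins lay on opposite sides of control cells. For Eef1a1, the summit pileup scaled for depth came to 0.868 times the shCtrl value with shUbe2t #1 and to 1.35 times with shUbe2t #2. At Hspa8 it was 1.08 times in shUbe2t #1 and 0.904 times in shUbe2t #2. The Hspa8 summits of shUbe2t #1 and shCtrl held 13 fragments each, so the 1.08 comes from the depth scaling alone. Each ratio is 1 library against 1, its counting interval takes in 1, and the difference between hairpins was not tested.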

How the results depend on the processing

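The number of genes called depends on the threshold and on the window. With a −log10 q of at least 5, 2 of the 11 intervals were left, Ncl in shCtrl and Eef1a1 in shUbe2t #2, so that 1, 0 and 1 of the 5 genes were called in shCtrl, shUbe2t #1 and shUbe2t #2 and 0 in all 3. Of all intervals, 47.5%, 45.8% and 47.0% of these lists met that threshold. With the gene body alone, the numbers were 3 in shCtrl, 1 in shUbe2t #1 and 2 in shUbe2t #2, with 0 in all 3. With the 1263 best intervals of each S9.6 list by p, 5 were called in shCtrl, 1 in shUbe2t #1 (Hspa8), 1 in shUbe2t #2 (Eef1a1) and 0 in all 3. A window of 2000 bp, or at least 50% of the interval inside the window, left each count as it was, and 0 genes were called without antibody under each alternative run on that list. The 6 ratios to shCtrl under 4 other depth or summit settings ran from 0.706 to 1.42, and all 24 values stayed inside the counting interval of the ratio reported. Among these, Hspa8 in shUbe2t #1 came to 1 with no depth scaling. Summing the summits of a region could not change a ratio, since each interval has 1 summit. The depth settings moved the ratios little beside the width of the counting intervals, so staying inside them is no check of the ratios. No paired analysis was possible because each condition has 1 library. Depth limits every comparison here, since the summits held 10 to 19 fragments and the smallest callable pileup was 7 or 8.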
